A study of Homo sapiens with 6 samples.

Results

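The fucosyltransferases that make H and Lewis antigens and their relatives were examined in AGS cells after knockdown of C1GALT1. The family comprised 10 genes, FUT1, FUT2, FUT3, FUT4, FUT5, FUT6, FUT7, FUT9, FUT10 and FUT11, chosen by the RefSeq accession of their probes. They had 13 probes among the 58201 gene probes of the array, which covered 22439 named genes. AGS is a human gastric adenocarcinoma cell line. Cells received either nontargeting siRNA (si-Control, n = 3) or one siRNA against C1GALT1 (si-C1GALT1-3, n = 3), and total RNA was taken 48 h later and hybridised to one-colour Agilent arrays. All 6 samples came from the same line, shared the transfection and carried no other treatment. Nothing in the labels says that the 3 samples of a group came from separate cultures, so p-values measure the spread between these samples, which may be technical. Because a single siRNA was used on these arrays, loss of C1GALT1 and other actions of that siRNA cannot be told apart.

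Fucosyltransferases move fucose from GDP-fucose, in the Golgi or the endoplasmic reticulum, onto glycans or proteins. FUT1 and FUT2 add the alpha1,2-linked fucose of the H antigen, the base of the ABO antigens, and FUT2 is the secretor enzyme of mucosal epithelia such as the stomach. FUT3, FUT4, FUT5, FUT6, FUT7 and FUT9 add fucose to inner N-acetylglucosamine and thereby make Lewis a, Lewis b, Lewis x and Lewis y and the sialylated forms that selectins bind. FUT10 and FUT11 resemble this family and have been described as protein O-fucosyltransferases, under the symbols POFUT3 and POFUT4. C1GALT1 builds core 1 O-glycans, one of the scaffolds on which such fucosylated ends are carried.

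FUT1 and FUT2 lie close together on chromosome 19, with the protein-coding genes MAMSTR, RASIP1 and IZUMO1 between them, and FUT6, FUT3 and FUT5 are direct neighbours on the same chromosome. The RefSeq table of promoters held a window for 8 of the 10 genes. The windows of FUT2 and FUT1 are shown because these enzymes share a reaction and a neighbourhood, and FUT2 had the largest change of the family. Each spans 300 bases of build GRCh38.p14, with 250 before and 50 after the annotated start, written 5′ to 3′ along the gene, with GC boxes (GGGCGG on either strand) in capitals.
FUT2, chr19:48695721-48696020, plus strand: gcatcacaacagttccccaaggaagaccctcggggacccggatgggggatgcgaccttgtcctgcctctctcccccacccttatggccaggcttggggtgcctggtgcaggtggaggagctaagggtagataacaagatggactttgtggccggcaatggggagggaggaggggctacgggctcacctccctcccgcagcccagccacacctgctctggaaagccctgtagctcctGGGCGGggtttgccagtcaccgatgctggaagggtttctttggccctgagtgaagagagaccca
FUT1 distal start, chr19:48755309-48755608, minus strand: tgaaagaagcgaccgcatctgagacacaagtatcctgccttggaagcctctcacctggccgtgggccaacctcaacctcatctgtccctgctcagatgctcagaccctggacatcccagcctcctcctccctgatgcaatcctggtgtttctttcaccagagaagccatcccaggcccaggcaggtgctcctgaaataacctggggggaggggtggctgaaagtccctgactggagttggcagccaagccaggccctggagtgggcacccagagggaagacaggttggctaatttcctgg
FUT1 proximal start, chr19:48752592-48752891, minus strand: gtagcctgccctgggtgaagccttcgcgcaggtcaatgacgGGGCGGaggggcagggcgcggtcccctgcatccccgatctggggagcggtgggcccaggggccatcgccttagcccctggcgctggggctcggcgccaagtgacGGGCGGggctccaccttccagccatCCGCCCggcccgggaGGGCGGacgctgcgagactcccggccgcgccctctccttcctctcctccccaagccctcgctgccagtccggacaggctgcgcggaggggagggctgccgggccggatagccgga
The FUT2 window held 1 GC box, the distal FUT1 window 0 and the proximal FUT1 window 4, and 45.0% of the 35114 promoter windows of this length held at least 1. None of these windows held a TATA box (TATAAA, in 11.5% of windows) or a CCAAT box (CCAAT, in 34.6%), searched on both strands. These motifs do not overlap one another and were chosen after the FUT2 sequence had been read. They describe letters only. The FUT2 window held 8 CpG dinucleotides, the distal FUT1 window 3 and the proximal FUT1 window 30, against a median of 14 over all windows.

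On each array, 66.2% to 72.7% of the 60901 gene spots were well above background and 0 were saturated. The array si-Control 2 had a central region of low signal, and its spots there, 9712 or 15.9% of gene spots, were treated as missing. This touched FUT4, FUT5, the second probe of FUT6 and the brighter probe of FUT11, for which 2 si-Control arrays remained. The array had also the largest number of spots marked as outliers, 424 against 100 to 211 on the others. Every si-Control sample was hybridised in the first column of its slide and every si-C1GALT1-3 sample in the second, so that position and siRNA cannot be told apart. The epithelial markers EPCAM, KRT8, KRT18, KRT19 and CDH1 were well above background on every array not masked. Of the leukocyte, endothelial and fibroblast markers, 3 of 4, 2 of 3 and 1 of 4 genes, respectively, were so too. COL1A2 and LUM, markers of fibroblasts, were not well above background on any array. The leukocyte marker PTPRC had probes that disagreed. At 2 of its 5 probes PTPRC was higher in si-C1GALT1-3 past the threshold used below, by 1.90 on the log2 scale at one and from below background on all si-Control arrays at the other. The brightest PTPRC probe differed by -0.33, and 1 was below background on every array. The summed leukocyte markers ranged from 13.66 to 14.38 (log2) in si-Control and from 13.61 to 13.77 in si-C1GALT1-3, and their part in the results was not tested.

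**Figure D1:**
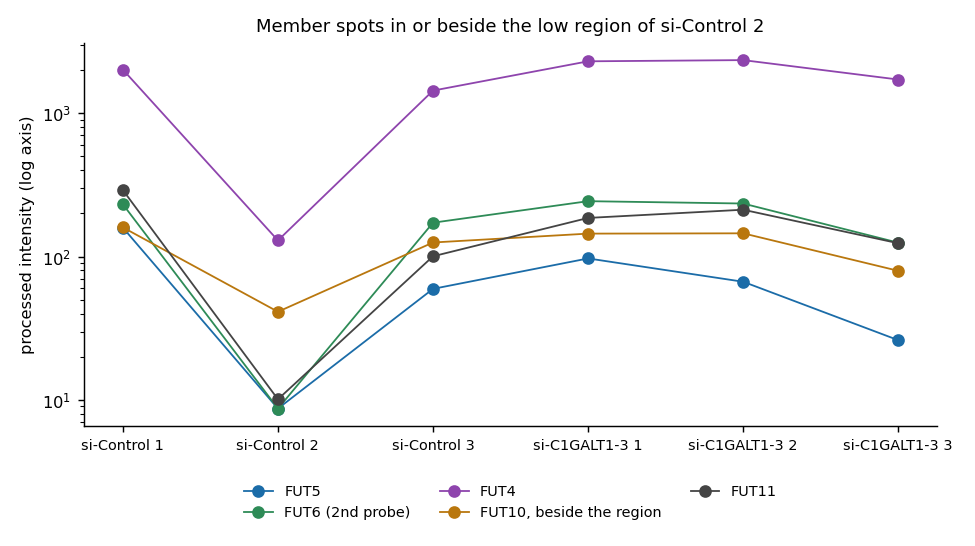
Processed intensity, on a log axis, of the 4 family spots inside the low region of si-Control 2 and of the FUT10 spot beside it, on each of the 6 arrays, with a line joining the arrays of a spot. FUT4 read 129.5 on si-Control 2 and between 1436.7 and 2344.8 on the other arrays, and the other spots of the region read 8.7 to 10.1 there.

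The target was read first. C1GALT1 had normalized log2 signals of 12.22, 13.03 and 12.62 in si-Control 1, 2 and 3, and of 11.76, 11.98 and 11.13 in si-C1GALT1-3 1, 2 and 3. The groups did not overlap. C1GALT1 was 2.00-fold lower in the si-C1GALT1-3 samples, a log2 difference of -1.00 ± 0.31 (SE), with a limma p of 0.0193 and an adjusted p of 0.265, short of the threshold of the study. That threshold, used throughout, was an unadjusted p under 0.01 with at least a 2-fold difference. Within slides 1, 2 and 3 the log2 difference of C1GALT1 was -0.47, -1.05 and -1.49. C1GALT1C1, the chaperone that C1GALT1 needs, differed by 0.27 ± 0.17 (SE) on the log2 scale, with overlapping groups. These are bulk RNA samples, in which a change of level per cell and a change in the mixture of cells cannot be told apart.

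None of the 10 fucosyltransferase genes passed the threshold (0 of 10), against 3.41% of the 22437 named genes tested at one probe each and 2.64% of all 58195 probes tested. At an unadjusted p under 0.05 there was 1, FUT2. The median log2 difference over the 10 genes was 0.16, with 6 positive and 4 negative, beside 0.02 over the named genes and 0.00 over all probes. The groups did not overlap for 4 of the 10 genes, against 25.3% of named genes. Of these, 3 were on the higher side, FUT2, FUT4 and FUT9, against 14.0% of named genes, and 1 on the lower, FUT5, against 11.2%. Among the 7 genes with all 3 si-Control values there were 2, FUT2 and FUT9, against 23.3%, and FUT9 was below background. For genes with fewer si-Control values the background share was 35.6%.

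**Figure D2:**
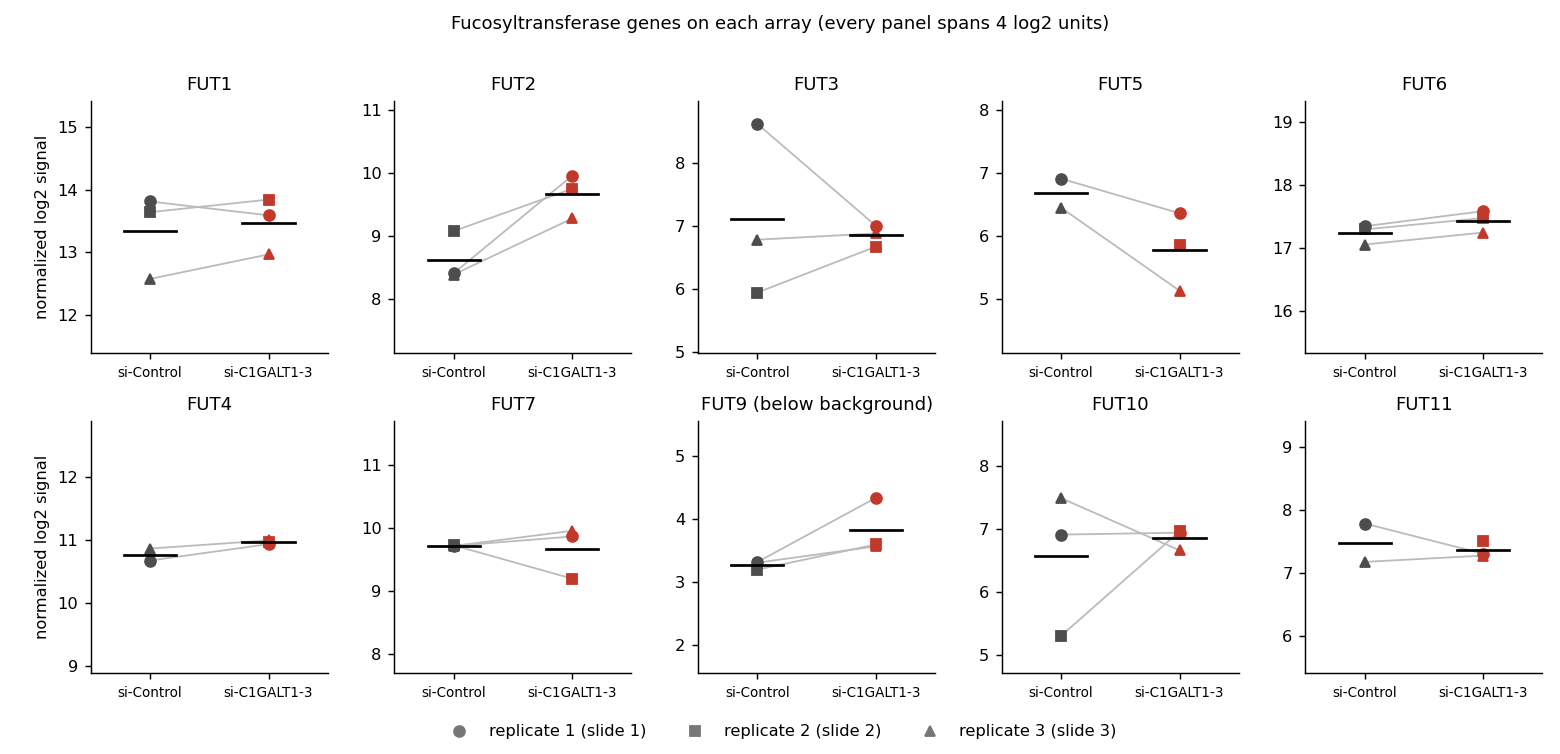
Normalized log2 signal of the 10 fucosyltransferase genes, each at its brightest probe, for 3 si-Control (grey) and 3 si-C1GALT1-3 samples (red), with one symbol and line per slide, horizontal bars for group means, and axes of equal span in all panels. FUT2 is higher in every si-C1GALT1-3 sample than in any si-Control sample, while FUT1, FUT3, FUT7, FUT10 and FUT11 overlap.

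FUT2, the secretor enzyme, was the gene of the family with the largest difference. Its normalized log2 signals were 8.41, 9.08 and 8.39 in si-Control 1, 2 and 3, and 9.96, 9.75 and 9.28 in si-C1GALT1-3 1, 2 and 3. The lowest si-C1GALT1-3 sample stood above the highest si-Control sample, and FUT2 was higher on each of the 3 slides, by 1.55, 0.67 and 0.89. The group means were 8.62 ± 0.39 (SD, n = 3) and 9.66 ± 0.35 (SD, n = 3). The log2 difference was 1.04 ± 0.28 (SE), or 2.05-fold, with a 95% interval of 0.35 to 1.73, a limma p of 0.0106 and an adjusted p of 0.218, so FUT2 narrowly missed the threshold on p. An exact two-sided permutation test over the 6 samples gave p = 0.10, the smallest that 3 against 3 samples allow. With arrays exchanged only within a slide, the exact p was 0.25, again the smallest that 3 slides allow. The deposited processed intensities, before any scaling between arrays, were 440.5, 523.8 and 234.9 in si-Control and 1180.7, 1017.0 and 500.0 in si-C1GALT1-3. On that scale si-Control 2 slightly exceeded si-C1GALT1-3 3, so the separation of the groups was seen only after normalization.

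MUC1, a membrane mucin taken as a marker of gastric mucous cells, was higher in the same samples as FUT2. Its log2 signal averaged 11.17 ± 0.77 (SD, n = 3) in si-Control, where the highest sample read 12.01, and 13.50 ± 0.44 (SD, n = 3) in si-C1GALT1-3, where the lowest read 13.01. All si-C1GALT1-3 samples were above all si-Control samples, and MUC1 passed the threshold at 2.34 ± 0.44 (SE), or 5.06-fold, with a limma p of 0.00218 and an adjusted p of 0.137. A second MUC1 probe differed by 2.27 ± 0.39 (SE) and passed as well. The call at the first probe was lost without si-Control 1 (2.24), without si-C1GALT1-3 1 (2.29) and with the methods' t-test (p of 0.0103). TFF1, the other mucous marker with a probe, differed by -0.32 and did not pass. The summed mucous markers, MUC1 and TFF1, ranged from 10.79 to 12.13 (log2) in si-Control and from 13.06 to 13.90 in si-C1GALT1-3. TFF1 averaged 8.57 in si-Control and 8.24 in si-C1GALT1-3, so the sum mostly follows MUC1. The part of these markers in the FUT2 value was not tested.

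Whether FUT2 is counted depended on the processing. The log2 difference of FUT2 was positive in 18 of 18 alternatives, between 0.88 and 1.27, and it passed the threshold in 6 of them. It did so with dim probes left out (limma p of 0.00545), with a trend and robust prior (0.00969), with probes merged into a median per gene (0.00965) and with a wider mask on si-Control 2, chosen after seeing the data (0.00674). It also did so without si-Control 2, at a log2 difference of 1.27 and a limma p of 0.00432, and without si-C1GALT1-3 3, at 1.22 and a limma p of 0.00817. The adjusted limma p over the 18 alternatives ranged from 0.117 to 0.719.

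**Figure D3:**
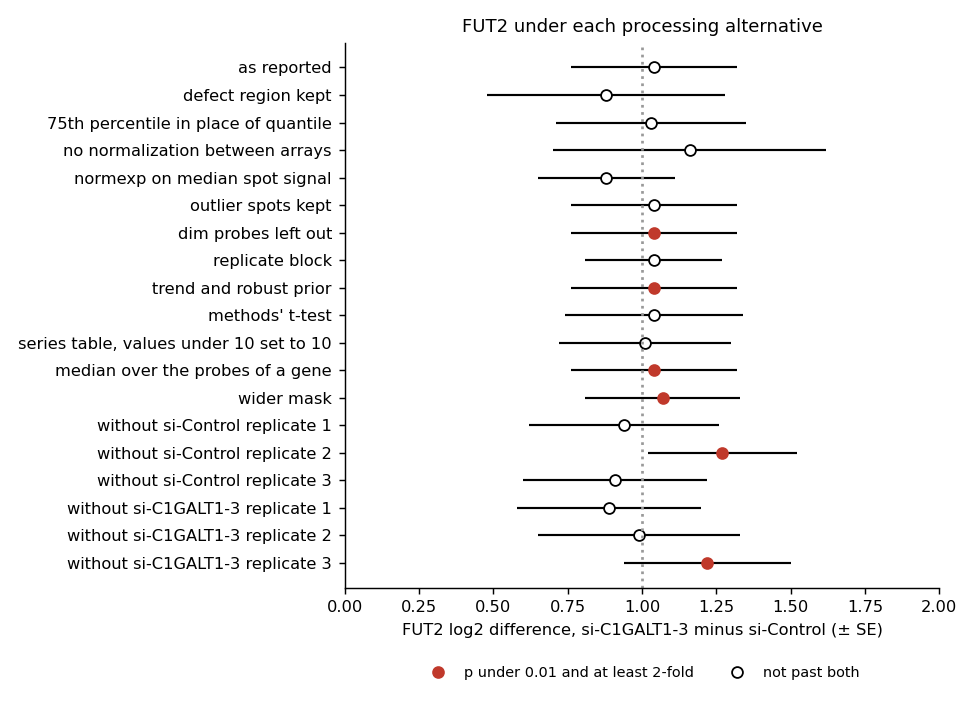
Log2 difference of FUT2, si-C1GALT1-3 minus si-Control, with its SE as a bar, as reported and under 18 processing alternatives, where filled points passed an unadjusted p under 0.01 and 2-fold (dotted line). All values lie above 0, from 0.88 to 1.27, and 6 alternatives passed both conditions.

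FUT1, the H transferase of red cells, showed no such separation. FUT1 had log2 signals of 13.81, 13.64 and 12.58 in si-Control 1, 2 and 3, and of 13.59, 13.84 and 12.97 in si-C1GALT1-3 1, 2 and 3. Replicate 3 was the lowest sample in both groups, and the groups overlapped. The log2 difference was 0.12 ± 0.40 (SE), with a 95% interval of -0.88 to 1.12 and an adjusted limma p of 0.946, so a 2-fold change in the direction of FUT2 lay inside the interval. Within slides 1, 2 and 3 it was -0.22, 0.20 and 0.39. The interval above does not use the slides as pairs. With the slide as a block the SE of FUT1 fell to 0.17 at the same difference. It was -0.26 without si-Control 3 and -0.06 without si-C1GALT1-3 2. The difference between both enzymes was then taken on each array, a comparison chosen after the values were seen. FUT2 minus FUT1 averaged -4.72 ± 0.62 (SD, n = 3) in si-Control and -3.81 ± 0.25 (SD, n = 3) in si-C1GALT1-3. The shift of 0.91 gave p = 0.10 in the exact two-sided permutation test and 0.25 within slides, the smallest values possible. FUT2 had been picked for the largest difference of the family, so these p-values cannot decide whether both enzymes differ in response.

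The Lewis cluster of FUT6, FUT3 and FUT5 gave no common direction. These 3 genes are close paralogs, and probes may take up transcripts of a neighbour, which was not tested. FUT6, the alpha1,3 enzyme, had log2 signals at its brighter probe of 17.34, 17.29 and 17.05 in si-Control, and of 17.58, 17.47 and 17.24 in si-C1GALT1-3. The groups overlapped, but on each slide the si-C1GALT1-3 sample was the higher one, by 0.24, 0.18 and 0.19. The log2 difference of FUT6 was 0.20 ± 0.16 (SE), with a 95% interval of -0.19 to 0.60 and an adjusted limma p of 0.638. Its second probe, masked on si-Control 2, was far dimmer, with a mean of 7.71 in si-Control and 7.54 in si-C1GALT1-3. It differed by -0.17 ± 0.24 (SE), so that the probes of FUT6 had opposite signs within their errors. Why the probes differ so much in level was not tested.

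FUT3, the Lewis enzyme proper, which can also make the alpha1,4 bond, was the most variable gene of the cluster among controls. Its log2 signals were 8.63, 5.95 and 6.79 in si-Control and 7.01, 6.68 and 6.89 in si-C1GALT1-3. The 3 si-Control samples enclosed all si-C1GALT1-3 samples, with an SD of 1.37 against 0.17. The log2 difference of FUT3 was -0.26 ± 0.67 (SE), with a 95% interval of -1.93 to 1.41. It was 0.49 without si-Control 1 and -0.85 without si-Control 2, so that its sign turned with 1 control array.

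FUT5, the other alpha1,3 paralog of the cluster, had log2 signals of 6.91 and 6.45 in si-Control 1 and 3 and of 6.36, 5.86 and 5.13 in si-C1GALT1-3. Each si-C1GALT1-3 sample was below both controls, and 2 of the 3 were well above background. The log2 difference of FUT5 was -0.90 ± 0.42 (SE), with a 95% interval of -1.99 to 0.19, a limma p of 0.0874 and an adjusted p of 0.439, and it did not pass the threshold. Within slides 1 and 3 it was -0.55 and -1.33, and no value could be had on slide 2. With the low region of si-Control 2 kept, the difference was 0.20.

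FUT4 and FUT7, which make Lewis x and sialyl Lewis x in leukocytes, showed little difference. FUT4 had log2 signals of 10.68 and 10.87 in si-Control 1 and 3 and of 10.94, 10.97 and 11.00 in si-C1GALT1-3. Its groups did not overlap, yet the log2 difference was only 0.20 ± 0.15 (SE), with a 95% interval of -0.20 to 0.60, which leaves out a 2-fold change in either direction. Kept in, the low spot of si-Control 2 turned this into 1.28. FUT7 had log2 signals of 9.71, 9.72 and 9.71 in si-Control and of 9.86, 9.19 and 9.95 in si-C1GALT1-3. The si-Control values lay inside the range of the si-C1GALT1-3 samples, and the log2 difference was -0.05 ± 0.23 (SE), with a 95% interval of -0.62 to 0.52. FUT9, which makes Lewis x in brain and stomach, was not well above background at either probe on any of the 6 arrays, and no fold is given for it.

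FUT10 and FUT11, the putative protein O-fucosyltransferases, did not pass the threshold either. FUT10 had log2 signals of 6.91, 5.30 and 7.49 in si-Control and of 6.94, 6.96 and 6.66 in si-C1GALT1-3. Among si-Control arrays, 2 read the FUT10 spot well above background, and the low value came from si-Control 2, where it lies 7 lines outside the masked region. The 142 spots around it on that array deviated from the mean of si-Control 1 and 3 by a median of -0.66 (log2), against 0.41 for spots farther out. For these values arrays were scaled to their 75th percentile and not quantile normalized. The log2 difference of FUT10 was 0.28 ± 0.56 (SE), and -0.35 without si-Control 2 or with the wider mask. FUT11 had log2 signals at its brighter probe of 7.79 and 7.18 in si-Control 1 and 3 and of 7.31, 7.51 and 7.28 in si-C1GALT1-3, with a log2 difference of -0.12 ± 0.24 (SE). Its second probe, well above background on 1 si-Control and 2 si-C1GALT1-3 arrays, differed by 0.28 ± 0.27 (SE).

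**Figure D4:**
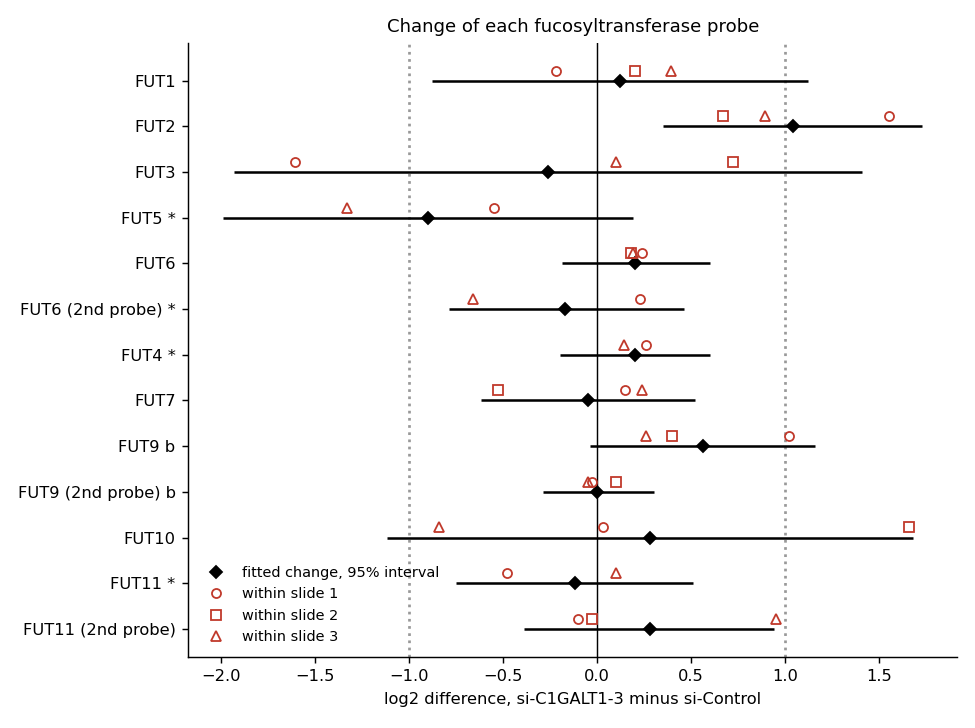
Fitted log2 difference of each of the 13 fucosyltransferase probes with its 95% interval (black), and the difference within each slide (red symbols). A star marks probes masked on si-Control 2, b marks probes below background in both groups, and dotted lines mark 2-fold. The interval of FUT2, from 0.35 to 1.73, is the only one among the probes that leaves out 0.

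The surrounding pathway was read from 36 genes. They supply GDP-fucose, remove fucose, build or cap the H and Lewis chains, bind them or act on FUT promoters. The other fucosyltransferases FUT8, POFUT1 and POFUT2 were included too. A probe was found for 35 of the genes. Of these, 1 passed the threshold with a lower level, against 1.33% of named genes, and 0 with a higher level, against 2.08%. The median log2 difference was 0.21, with 22 positive and 13 negative. Groups did not overlap for 12 of the 35 (34.3%), 9 higher and 3 lower, beside 25.3% of named genes, and 9 of these 12 had all 3 si-Control values. The gene that passed was B3GNT5, which starts the lacto-series chains of glycolipids, a carrier of Lewis antigens.

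B3GNT5 had log2 signals of 11.59, 11.94 and 11.48 in si-Control and of 9.86, 9.99 and 9.27 in si-C1GALT1-3. All si-C1GALT1-3 samples were far below all si-Control samples. B3GNT5 fell by 1.96 ± 0.25 (SE) on the log2 scale, or 3.89-fold, with a 95% interval of -2.57 to -1.35, a limma p of 2.7e-04 and an adjusted p of 0.0839. It passed the threshold in 18 of 18 alternatives, with values between -2.11 and -1.73.

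Of the 5 genes that supply and carry GDP-fucose, 3 were higher in every si-C1GALT1-3 sample than in any si-Control sample. The share among named genes was 14.0%, and none of the 5 passed the threshold. FCSK, the fucose kinase of the salvage route, differed by 0.68 ± 0.14 (SE), with a limma p of 0.00275 and an adjusted p of 0.143, short of 2-fold. GFUS, which completes GDP-fucose synthesis from mannose, differed by 0.51 ± 0.17 (SE), and SLC35C1, the Golgi GDP-fucose carrier, by 0.31 ± 0.15 (SE). FPGT, the next salvage enzyme, was the lowest of the group, at -0.17 ± 0.19 (SE), and GMDS had overlapping groups. Of the fucosidases, FUCA1 differed by 0.62 ± 0.18 (SE), with groups apart, and FUCA2 by -0.10 ± 0.38 (SE).

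Among the other fucosyltransferases, FUT8, which adds core fucose to N-glycans, differed by 0.85 ± 0.38 (SE) on 2 si-Control arrays, with groups apart, and passed the threshold only when si-C1GALT1-3 3 was left out (1.18). POFUT1, which fucosylates EGF repeats of Notch, differed by 0.35 ± 0.14 (SE) at its brightest probe, with groups apart. Its other probes disagreed in sign, at -0.25 ± 0.24 (SE) with overlapping groups and at 0.67 ± 0.22 (SE) on 2 si-Control arrays, so no direction is given for POFUT1. POFUT2 differed by -0.05 ± 0.18 (SE). Among chain-building genes, ST3GAL4, which caps chains with sialic acid on the way to sialyl Lewis x, differed by 0.83 ± 0.18 (SE) on 2 si-Control arrays, with a limma p of 0.00698 and an adjusted p of 0.191, short of 2-fold. B4GALT1 and B4GALT2, both galactosyltransferases of type 2 chains, went opposite ways, at 0.40 ± 0.16 (SE) and -0.47 ± 0.15 (SE), each with groups apart.

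Of the selectins, which bind sialyl Lewis antigens, SELE differed by -0.69 ± 0.36 (SE), with groups apart and no pass of the threshold, and its second probe was below background on every array. The transcription factors HNF4A and CDX2, known to act on FUT genes, had overlapping groups, and CDX2 differed by 0.28 ± 0.21 (SE).

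**Figure D5:**
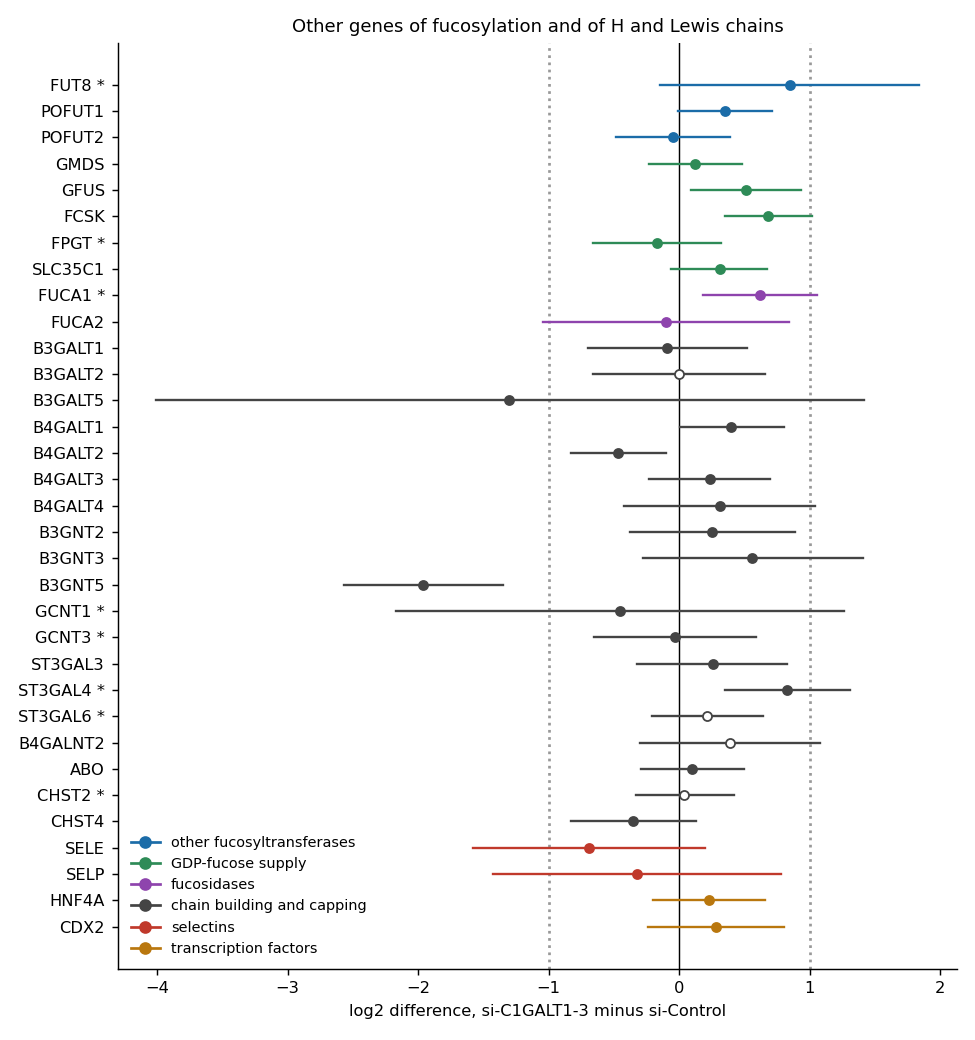
Fitted log2 difference with 95% interval for 33 other genes of fucosylation and of H and Lewis chains, coloured by role, where open points were below background in both groups, a star marks probes with a spot masked on si-Control 2, and dotted lines mark 2-fold. B3GNT5, at -1.96, is the one plotted gene past the threshold, and GFUS, FCSK and SLC35C1 sit at 0.51, 0.68 and 0.31.

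The pattern of FUT2 across the 6 arrays was compared with that of 14159 named genes well above background, each centred on its own mean, and likeness was the root mean square log2 difference. The most alike were FMN1 (0.105), NEIL1 (0.124), PPM1N (0.127), FLT3LG (0.127) and CPT2 (0.128). FMN1, an actin-nucleating formin, differed between groups by 0.94 ± 0.26 (SE), with groups apart, and did not pass. NEIL1, a DNA glycosylase of base excision repair, differed by 1.13 ± 0.23 (SE), PPM1N, a phosphatase, by 1.08 ± 0.26 (SE), FLT3LG, a haematopoietic cytokine, by 1.17 ± 0.24 (SE) and CPT2, of mitochondrial fatty acid import, by 1.21 ± 0.30 (SE), and these passed the threshold. Each of these 4 calls was lost when si-Control 1, si-Control 3, si-C1GALT1-3 1 or si-C1GALT1-3 2 was left out, while FMN1 passed without si-Control 2 or si-C1GALT1-3 3, as FUT2 did. Genes were picked for likeness to FUT2, so their differences are a description.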

How the data were processed

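RNA of 6 AGS samples, 3 si-Control and 3 si-C1GALT1-3, was read on one-colour Agilent arrays. The authors deposited scanner output of Agilent Feature Extraction 10.5.1.1, named in the submitters' processing notes, in which values are fluorescence intensity per spot, corrected for background but not scaled between arrays. A whole-series table deposited by the authors holds background-subtracted intensity of the same spots and served as an alternative.

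From the processed intensity, log2 values were taken, control spots were left out, and spots marked as outliers were set to missing. On si-Control 2, lines 113 to 288 and columns 59 to 115 of the 384 by 164 grid were also set to missing. Arrays were quantile normalized, spots of a probe were averaged, and groups were compared with limma 3.58.1 (lmFit, eBayes) in R 4.3.3, as the methods of the study name quantile normalization and limma. Adjusted p-values are Benjamini-Hochberg over all probes tested. The fit was also run on simulated data with independent noise and no missing values. These arrays have masked spots and shared slides, so that run does not bear on the results given here. The number of arrays limits the precision.

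Probes were named by RefSeq accession through a table of GRCh38.p14. The array names an older build, so no gene coordinates were taken from it. For genes with several probes the one with the highest mean was used, and other probes are given for the family genes, POFUT1, SELE, MUC1 and PTPRC. The text names all family genes, C1GALT1 and C1GALT1C1, and of the pathway list those that passed, those with groups apart and the extremes of each subgroup among probes well above background, plus the 5 genes most alike to FUT2. PTPRC and the other markers, GMDS and HNF4A were named beyond that rule, and some genes of the lists are counted but not reported here by name. The family, the lists and the masked region were chosen with earlier results of these data known.

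Arrays with the same replicate number share a slide, per the file headers. Their deviations from the group means correlated by 0.198, 0.215 and 0.329 over 48794 probes. The numbers were taken as pairs for the replicate block, the differences within slides and the permutation within slides. The reported fit, with its SE, intervals, p-values and calls, did not use the pairs. Alternatives were the region kept, the 75th percentile or no normalization, normexp (offset 50) on the median spot signal, since the planned mean signal is not used here, outlier spots kept, dim probes left out, a replicate block, limma's trend and robust options, the methods' t-test, the deposited series table floored at 10, the median over probes, a mask wider by 20 lines and 10 columns, and each array left out. SLC35C2 and MUC5AC matched no probe by accession and were not analysed here.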

Additional observations from a re-analysis of the deposited data

How the results depend on the processing

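The number of fucosyltransferase genes past the threshold was 0 as reported and 1, always FUT2, with dim probes left out, a trend and robust prior, the median over probes and the wider mask, and 0 to 1 with single arrays left out. The pathway count was 1 as reported, 2 with the 75th percentile, no normalization, normexp and dim probes left out, and 1 to 2 with single arrays left out. Over all probes 1538 passed, 920 with normexp, 896 with the methods' t-test, and 1126 to 1781 with single arrays left out. Of those 62.5% were higher in si-C1GALT1-3, 72.6% without normalization and 40.2% with the region kept. The 75th percentile moved the median of all probes to -0.11, beside 1.03 for FUT2. With the replicate block, which pairs arrays of a slide, no fucosyltransferase and no pathway gene changed its call, FUT2 stayed at 1.04 (limma p of 0.0134), 0 family and 1 pathway gene and 1604 of all probes passed, and of the genes alike to FUT2 PPM1N lost its call.

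Signs turned only for genes that did not pass the threshold. With the region kept they were 0.20 for FUT5, 1.00 for FUT11 and 1.16 for FPGT. Without normalization they were 0.07 for FUT7 and 0.07 for POFUT2. POFUT2 was 0.03 with normexp and 0.01 with the series table. With the median over probes, FUT6 was -1.58, FUT11 0.40, POFUT1 -0.03 and FPGT 0.12. For FUT6 the median on si-Control 2 rests on the brighter probe alone, since the other is masked there. FUT10 was -0.35 with the wider mask. With single arrays left out, FUT1 ran from -0.26 to 0.37, FUT3 from -0.85 to 0.49, FUT7 from -0.19 to 0.19, FUT10 from -0.35 to 0.74, FUT11 from -0.42 to 0.19, and FPGT, FUCA2 and POFUT2 from -0.36 to 0.02, from -0.44 to 0.24, from -0.13 to 0.08, respectively. C1GALT1 stayed negative in 18 of 18 alternatives and passed with dim probes left out (limma p of 0.00992). The causes were not tested. With at most 3 samples per group, the 95% intervals of FUT1, FUT2, FUT3, FUT5 and FUT10 reached past 2-fold. So did that of FUT9 at its brighter probe, which was below background in both groups.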
